A study of Mus musculus with 16 samples.

Results

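Fatty acid uptake and oxidation was described through 35 genes, listed by name and arranged by the step they serve: 5 of uptake, 5 of activation and storage, 5 of the carnitine shuttle, 16 of beta oxidation and 4 of regulation and uncoupling. The list was chosen with earlier results of these data known, so its shares beside all genes describe the list and are no independent test. These 35 are among 31759 genes on the array, counting each array identifier without a symbol as a gene. The tissue was the whole heart of male C57BL/6 mice carrying a floxed allele of the mineralocorticoid receptor (MR), the nuclear receptor for aldosterone and, in cardiomyocytes, for glucocorticoids. In cardioMRKO mice the αMHC-Cre transgene, whose promoter is active in cardiomyocytes, removes the receptor from those cells, while the other cells of the heart keep it. Their controls, flox for short, were Cre-negative littermates with that allele, so the groups also differ in the presence of the Cre transgene itself, and no group with Cre alone was analysed here. RNA was taken at 1 month and at 2 months of age from 4 mice of each genotype, giving 4 groups of 4 hearts and 16 single-colour arrays.

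The adult heart draws most of its energy from long-chain fatty acids. Lipoprotein lipase frees them from circulating triglyceride, Cd36 and fatty acid transport proteins bring them across the membrane, Fabp3 carries them through the cytosol, and acyl-CoA synthetases activate them to acyl-CoA. The carnitine shuttle then moves the acyl groups into the mitochondrion, where acyl-CoA dehydrogenases, hydratases, hydroxyacyl-CoA dehydrogenases and thiolases remove acetyl-CoA in turn and pass electrons to the electron transfer flavoprotein. Many of these genes are known targets of PPARα, a nuclear receptor for fatty acids that pairs with RXR and works with the coactivator PGC-1α, and the heart raises this programme after birth as it turns from glucose to fat.

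The receptor pair binds direct repeats of the core AGGTCA with a single base between them, so the stretches before the start sites were searched for these letters on both strands. RefSeq promoters of build GRCm38.p6 were matched to 30 of the 35 genes, and the 250 bases before each start were read. The full repeat AGGTCANAGGTCA was found in 0 of 30 genes and in 0.0407% of the 27025 genes with a promoter. The core AGGTCA alone, or TGACCT, which is the same core on the other strand, was found in 7 of 30 (Acadm, Acadvl, Cd36, Cpt1a, Echs1, Plin5 and Ucp3) and in 15.8% of all genes. Acot1 and Hadh, whose levels are described below, held no match in this window. Stretches from 4 genes with a matching core are printed on the gene's own strand with the core in capitals, because these genes come from 4 different steps and their levels on the arrays are given later. The Plin5 stretch is chr17:56117698-56117733, the Cd36 stretch is chr5:17836104-17836139 and the Acadvl stretch is chr11:70015495-70015530, all on the minus strand, and the Cpt1a stretch is chr19:3323192-3323227 on the plus strand. The first base of the core lies 170 bases before the annotated start in Plin5, 228 in Cd36, 87 in Acadvl and 94 in Cpt1a. A match of letters is a description of the sequence and not evidence of binding.
Plin5: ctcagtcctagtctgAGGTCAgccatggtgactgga
Cd36: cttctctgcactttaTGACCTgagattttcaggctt
Acadvl: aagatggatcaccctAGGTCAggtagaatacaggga
Cpt1a: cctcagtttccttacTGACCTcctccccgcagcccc

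Levels are given as log2 of the processed signal minus the 75th percentile of the same array, so a level of 0 is that percentile and a difference of 1 is a doubling, and levels of different genes are not compared because each probe has its own brightness. The 75th percentile lay between 527 and 1091 units of signal, and 62.5% to 71.6% of probes were well above background on an array. All 35 genes were well above background on all 16 arrays and none held a missing value. Each of the 4 slides carried the 4 arrays of a single group, so a slide's effect and a group's cannot be told apart here. Replicate 4 of the flox hearts and replicate 3 of the cardioMRKO hearts, both at 2 months, stood apart in the spike-in controls, at -0.80 and -0.53. Each value is the median over 8 spike-in probes of the deviation from the probe's mean over all arrays. Values without one or both are given below where the sign of a 2-month difference turned and for the larger differences that moved by over 1.5 times. Nr3c2, which encodes MR, had a level of -4.46 ± 0.25 in flox hearts and -4.63 ± 0.11 in cardioMRKO hearts at 1 month (mean ± SD of 4 arrays), and at -3.70 ± 0.19 and -4.13 ± 0.23 at 2 months. The difference was -0.17 at 1 month (exact permutation test, two-sided, p = 0.257) and -0.43 at 2 months (p = 0.0286, the smallest that 4 against 4 can give), and neither passed limma across all genes (adjusted p = 0.988 and 0.122). The labels do not say which exons are floxed, so this probe may lie outside the deleted part and is no check of the deletion.

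At 1 month, 31 of the 35 genes lay below 0 in cardioMRKO minus flox, compared with 45.7% of all 20055 genes tested, with a median of -0.20 against 0.02 over all genes. None of the 35 was called, meaning an adjusted p under 0.05 in limma after Benjamini-Hochberg adjustment over all genes, where 0.0947% of all genes were called. At an unadjusted p under 0.05, 12 were lower and 1 higher, beside 2.28% and 3.73% of all genes. In 12 of the 35, or 34.3%, the 4 cardioMRKO values were under every flox value, compared with 3.68% of all genes. The smallest adjusted p among them was 0.361, for Acot1.

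At 2 months, 27 of the 35 lay below 0, compared with 62% of all genes, and the median was -0.25 against -0.08 over all genes. Acot1, Cpt1b and Hadh fell, which is 3 genes or 8.57% of the list, where 1.98% of all genes were called lower. None of the 35 rose, where 1.55% of all genes were called higher. At an unadjusted p under 0.05, 15 were lower and 1 higher, beside 13.9% and 4.92% of all genes. In 10 of the 35, or 28.6%, the 4 cardioMRKO values were under every flox value, compared with 7.28%. With only the 8 arrays of this age in the fit, which leaves fewer degrees of freedom for the spread, 0 of the 35 were called and 11 had an unadjusted p under 0.05. Without flox replicate 2 at 2 months the count was 6, with Cpt2, Eci1 and Eci2 added.

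Averaged over both ages, Acot1, Plin5, Cpt1b and Hadh fell, which is 4 of the 35, where 0.558% of all genes were called lower. At an unadjusted p under 0.05, 21 of the 35 were lower, compared with 8.83% of all genes. The same 27 genes were below 0 at 1 month and at 2 months, which held for 29.8% of all genes, and 4 were above 0 at both ages (Pnpla2, Ppara, Ucp2 and Angptl4). In the average, Acot1 was called under all 25 alternatives, Plin5 under 21, Cpt1b under 16 and Hadh under 6, so the averaged call on Hadh was lost in 19 of 25 (adjusted p = 0.0474 with all arrays and up to 0.324 in the alternatives). Acot1 alone was called without flox replicate 3 at 1 month or without cardioMRKO replicate 2 at 1 month, and Acot1 and Plin5 alone without cardioMRKO replicate 1 or 4 at 1 month. The mean level of the 35 genes lay between 4.57 and 4.66 on the cardioMRKO arrays and between 4.69 and 4.87 on the flox arrays at 1 month, and between 4.70 and 4.90 against 4.91 and 5.10 at 2 months. The mean of 98 other genes of fatty acid, glucose and citric acid metabolism also separated the arrays, at 2.93 to 3.03 against 3.05 to 3.17 at 1 month and at 3.12 to 3.21 against 3.24 to 3.33 at 2 months.

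**Figure D1:**
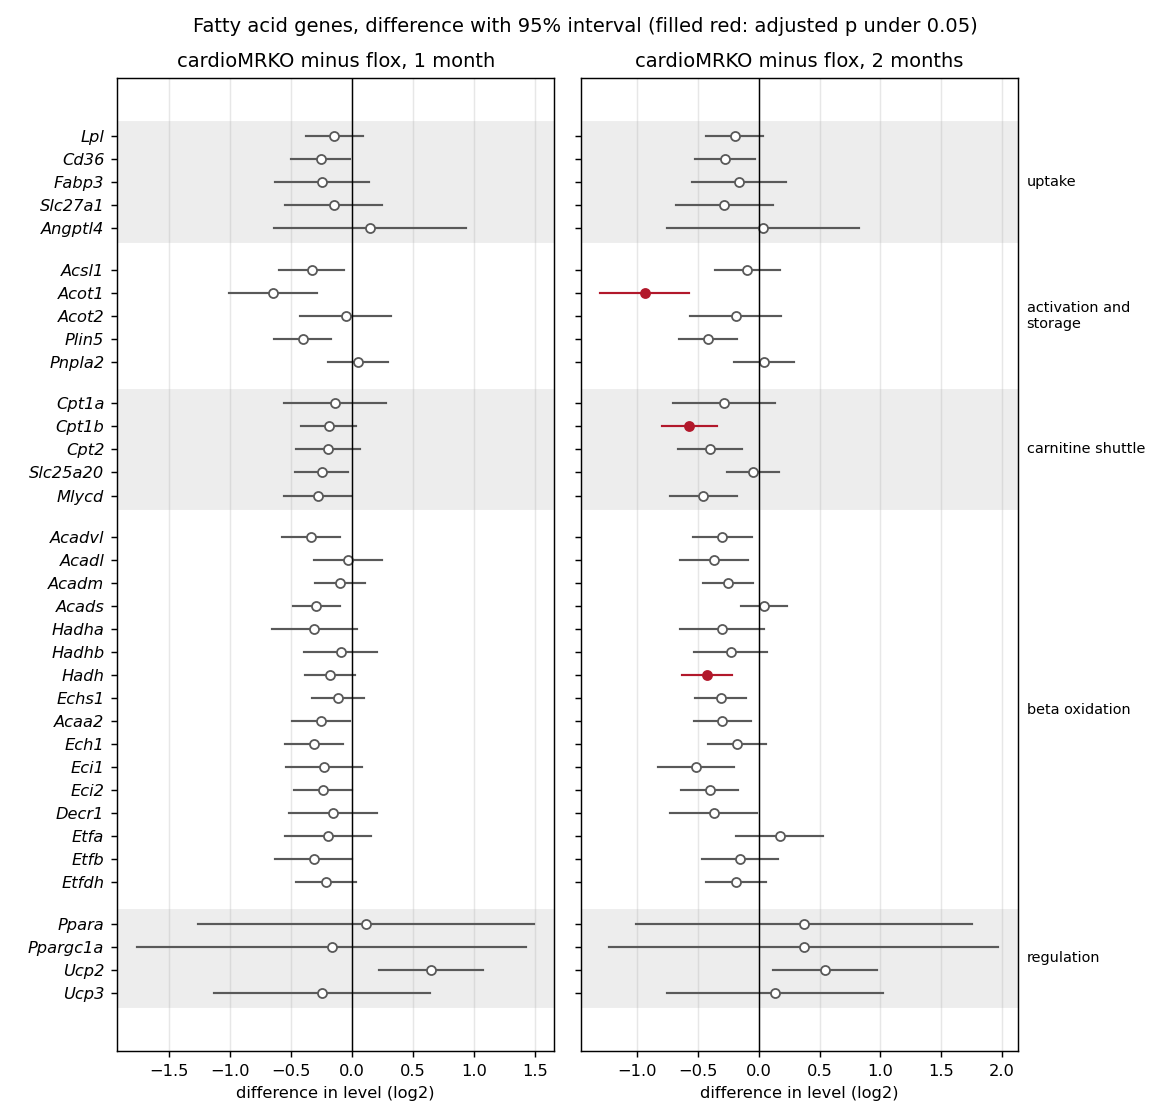
Difference in level (log2, horizontal axis) between cardioMRKO and flox hearts for each of the 35 genes at 1 month (left) and 2 months (right), with 95% intervals from limma and genes grouped by step. Most points lie to the left of 0 at both ages, and the filled points mark Acot1, Cpt1b and Hadh at 2 months, the 3 that were called.

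All 8 listed cardiomyocyte markers, among them Myh6, Tnni3 and Myl2, lay below 0 at 1 month with a median of -0.19, and none was called. At 2 months 6 of 8 (75%) lay below 0 with a median of -0.09, and none was called. Of all genes 62% lay below 0 there, with a median of -0.08. In 3 of 8 markers at 1 month and 1 of 8 at 2 months the 4 cardioMRKO values were under every flox value. The shares of all genes were 3.68% and 7.28%. At an unadjusted p under 0.05 in limma, 2 markers were lower at 1 month, 3 at 2 months and 4 averaged over the ages. The shares of all genes were 2.28%, 13.9% and 8.83%. In RNA from whole hearts, fewer cardiomyocytes and less RNA of a gene in each cardiomyocyte cannot be told apart. The mean level of the 8 markers was 7.18 to 7.32 in flox and 6.91 to 7.12 in cardioMRKO hearts at 1 month, and 7.05 to 7.26 and 6.92 to 7.32 at 2 months, where the groups overlapped. All 4 brown adipocyte markers, including Ucp1, were below 0 at 2 months (median -0.47) and 2 of 4 at 1 month, none called, with a mean level of 3.57 to 4.95 in flox and 2.97 to 4.31 in cardioMRKO hearts at 2 months. Brown fat expresses many of the same oxidation genes, including Cpt1b and Plin5. All 6 adipocyte markers lay below 0 at both ages, with medians of -0.28 and -0.24 and none called. Their mean level overlapped between the genotypes, at 0.10 to 1.5 in flox and -2.16 to 1.87 in cardioMRKO hearts at 1 month and at 1.80 to 2.61 and 1.44 to 2.80 at 2 months. The value of -2.16 was cardioMRKO replicate 3, with the other arrays of that group at 1.35 to 1.87. The 1-month mean of the list was below flox only through that array. The same array held 0.66 for the brown adipocyte markers, with the others of its group at 3.63 to 4.77. Of 6 lung epithelium markers, 5 lay above 0 at 1 month (median 2.89) and all 6 below 0 at 2 months (median -0.99), none called. Their mean level at 1 month was -6.16 to 2.93 in flox and -5.88 to 2.05 in cardioMRKO hearts. At 2 months it was 2.25 to 5.47 and 0.19 to 2.94, and the groups overlapped at both ages. Of 6 skeletal muscle markers, 5 lay below 0 at 1 month and 4 at 2 months, the latter being Myh1, Tnnt3, Ckm and Actn3. Myh4, a fast myosin heavy chain, was called higher at 2 months, by 1.22 (adjusted p = 0.00508). Whether each listed gene marks its cell type or tissue in whole heart, Cox8b, Ckm, Acta1 and Myh4 among them, was not tested. The part of these marker lists in the results was not tested.

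**Figure D2:**
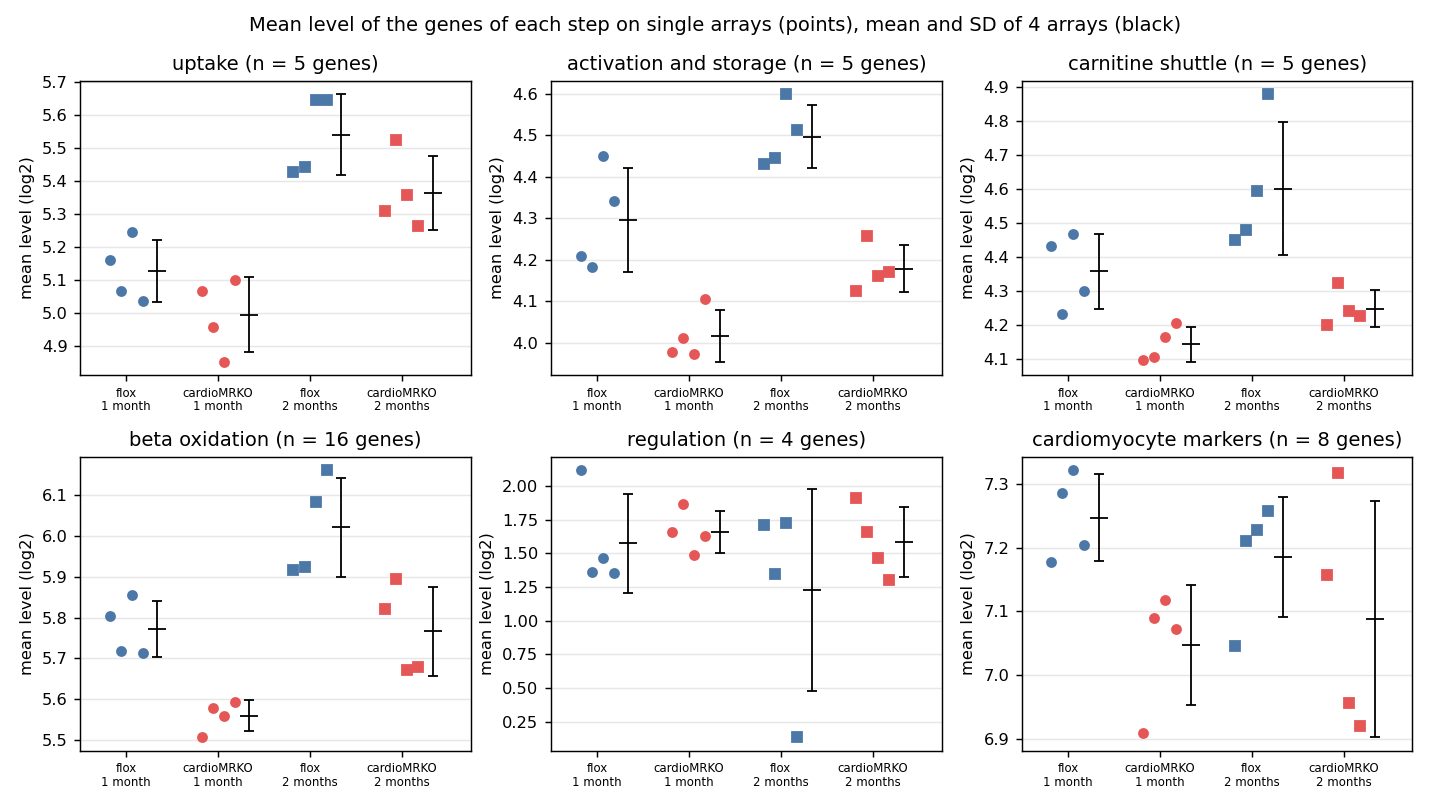
Mean level (log2, scaled to the array's 75th percentile, vertical axis) of the genes of each step and of 8 cardiomyocyte markers on every array, with circles for 1 month, squares for 2 months, blue for flox, red for cardioMRKO, and black bars for the mean and SD of 4 arrays. The cardioMRKO arrays lie below the flox arrays in activation and storage, the carnitine shuttle and beta oxidation at both ages, and the regulation panel holds a flox array at 0.13, far below the others.

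None of the uptake genes was called. Their median difference was -0.15 at 1 month and -0.20 at 2 months, and 4 of 5 were below 0 at each age. Cd36, the main fatty acid translocase of the heart, was at 4.95, 4.99, 5.01 and 4.92 on the flox arrays and at 4.66, 4.68, 4.72 and 4.78 on the cardioMRKO arrays at 1 month. These groups did not overlap, yet the difference of -0.26 (SE 0.113) had an adjusted p of 0.795. At 2 months Cd36 stood at 5.32, 5.33, 5.38 and 5.84 in flox and 5.28, 5.33, 5.14 and 5.01 in cardioMRKO hearts, a difference of -0.28 (adjusted p = 0.201). The flox spread came mostly from replicate 4, which lay 0.46 above the next array, and the groups overlapped. Without that array the Cd36 difference was -0.15 (adjusted p = 0.391).

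Lpl, lipoprotein lipase, was 7.65 to 7.91 in flox and 7.55 to 7.61 in cardioMRKO hearts at 1 month, a difference of -0.15 (adjusted p = 0.965). The ranges at 2 months were 7.70 to 7.95 and 7.38 to 7.84, a difference of -0.20 (adjusted p = 0.349), with -0.06 for its dimmer probe. The sign at 1 month depended on the scaling, since quantile normalization gave 0.05. Fabp3, the cytosolic carrier, and Slc27a1, a transport protein with acyl-CoA synthetase activity, differed by -0.25 and -0.15 at 1 month and by -0.16 and -0.28 at 2 months, with adjusted p from 0.433 to 1. Without cardioMRKO replicate 3 the 2-month difference was 0.01 for Fabp3 and -0.45 for Slc27a1, and at 1 month the Slc27a1 difference was 0.01 without flox replicate 1. Angptl4, a secreted inhibitor of lipoprotein lipase and a known PPAR target, showed the widest spread of the step, from 2.16 to 3.52 over the 8 arrays at 1 month, and differed by 0.15 at 1 month and 0.04 at 2 months. Neither sign of Angptl4 was stable: leaving out single arrays gave values down to -0.08 at 1 month and down to -0.23 at 2 months.

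Activation and storage held the gene with the largest difference of the list. Acot1, which hydrolyses acyl-CoA back to free fatty acid in the cytosol and is a known PPARα target, was at 2.77, 2.82, 3.15 and 2.74 in flox and at 2.05, 2.13, 2.08 and 2.61 in cardioMRKO hearts at 1 month. All cardioMRKO arrays were below all flox arrays, although replicate 4 lay closer to the flox range than to its own group. At 2 months the flox arrays were at 3.17, 3.24, 3.59 and 3.93 and the cardioMRKO arrays at 2.42, 2.49, 2.64 and 2.63. Acot1 fell by 0.94 on the log2 scale at 2 months (SE 0.169, 1.92-fold lower, adjusted p = 0.0086), lower in 4 of 4 hearts. The 1-month difference was -0.65 (SE 0.169, adjusted p = 0.361), and the difference between the ages, -0.29 (SE 0.239), had an adjusted p of 0.71. Averaged over the ages, Acot1 fell by 0.79 (SE 0.12, 1.73-fold lower, adjusted p = 0.00457).

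Acot2, the mitochondrial paralogue beside Acot1 in the same gene cluster, stood at 0.60 to 0.82 in flox and 0.62 to 0.74 in cardioMRKO hearts at 1 month. At 2 months the flox arrays were at 0.99, 0.90, 1.00 and 0.42 and the cardioMRKO arrays at 0.48, 0.56, 1.23 and 0.29. The differences were -0.05 and -0.19 with adjusted p of 1 and 0.589, and the 2 arrays that stood apart in the spike-ins, flox replicate 4 and cardioMRKO replicate 3, lay at opposite ends of their groups. Without both of them the difference of Acot2 at 2 months was -0.52 (adjusted p = 0.00983). These thioesterases are close in sequence, and whether a probe also binds RNA of the other gene was not tested.

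Plin5, which coats lipid droplets and ties them to mitochondria in oxidative tissues, was at 5.54, 5.26, 5.60 and 5.45 in flox and at 4.96, 4.96, 5.12 and 5.19 in cardioMRKO hearts at 1 month. At 2 months the values were 5.68, 5.74, 5.93 and 6.02 against 5.37, 5.59, 5.27 and 5.47. The groups did not overlap at either age, and the difference was close at both, -0.41 and -0.42 (SE 0.11 each, adjusted p = 0.396 and 0.0532). The average over the ages, a fall of 0.41 (SE 0.0778, 1.33-fold lower), passed the test at an adjusted p of 0.0201 and lost it without flox replicate 3 at 1 month (0.0517) or cardioMRKO replicate 2 at 1 month (0.0515).

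Acsl1, the main long-chain acyl-CoA synthetase of the heart, was at 6.81, 6.84, 7.14 and 7.03 in flox and at 6.72, 6.61, 6.60 and 6.56 in cardioMRKO hearts at 1 month. The groups did not overlap there, with a difference of -0.33 (adjusted p = 0.712). At 2 months they overlapped, at 6.88 to 7.07 against 6.44 to 7.05, with a difference of -0.09 (adjusted p = 0.712) that became 0.04 without cardioMRKO replicate 3 and 0.11 under quantile normalization. The other 2 probes of Acsl1, also above background on all 16 arrays, differed by -0.08 and -0.02 at 1 month and by -0.06 and -0.49 at 2 months, so the sizes depend on the probe. Pnpla2, the triglyceride lipase ATGL, overlapped at both ages and differed by 0.05 and 0.04, while its dimmer probe differed by -0.22 and -0.17.

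**Figure D3:**
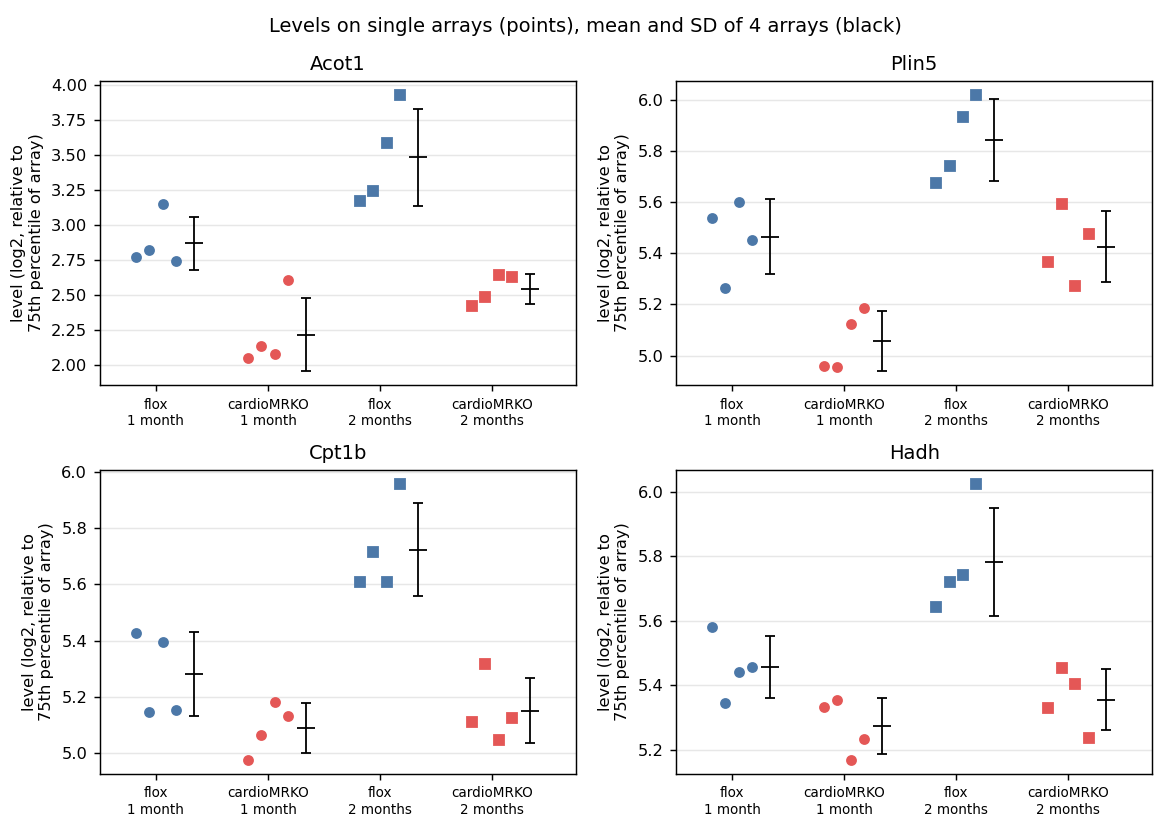
Levels (log2, scaled to the array's 75th percentile, vertical axis) of Acot1, Plin5, Cpt1b and Hadh on every array of the 4 groups, with circles for 1 month, squares for 2 months, blue for flox, red for cardioMRKO, and black bars for the mean and SD of 4 arrays. At 2 months all cardioMRKO arrays lie below all flox arrays in each panel, and at 1 month the groups are apart for Acot1 and Plin5 and overlap for Cpt1b and Hadh.

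All 5 carnitine shuttle genes lay below 0 at both ages, with a median of -0.20 at 1 month and -0.40 at 2 months. Cpt1b, the muscle carnitine palmitoyltransferase that commits acyl groups to the mitochondrion, was at 5.43, 5.15, 5.39 and 5.15 in flox and 4.98, 5.06, 5.18 and 5.13 in cardioMRKO hearts at 1 month, where the groups overlapped. At 2 months the flox arrays were at 5.61, 5.71, 5.61 and 5.96 and the cardioMRKO arrays at 5.11, 5.32, 5.05 and 5.13, with no overlap. Cpt1b fell by 0.57 at 2 months (SE 0.106, 1.49-fold lower, adjusted p = 0.00998), and the 1-month difference was -0.19 (adjusted p = 0.904). The difference between the ages was -0.38 (SE 0.149), with an unadjusted p of 0.0235 and an adjusted p of 0.336.

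The call on Cpt1b at 2 months rested on its brighter probe. The dimmer probe, also well above background on all 16 arrays, was 3.60 ± 0.04 (SD, n = 4) in flox and 3.61 ± 0.13 in cardioMRKO hearts at 2 months, a difference of 0.01. At 1 month the same probe differed by -0.24 and its groups did not overlap. With the mean of both probes the 2-month difference of Cpt1b was -0.28 (adjusted p = 0.0714) and the averaged one -0.25 (0.0516). Both probes carry the same transcript accession in the array design.

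**Figure D4:**
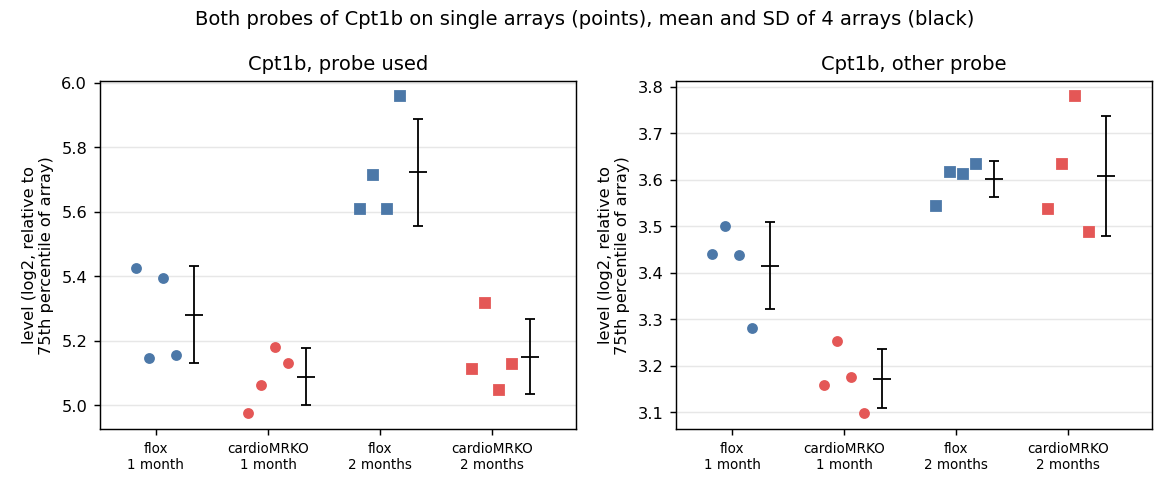
Levels (log2, scaled to the array's 75th percentile, vertical axis) of the 2 probes of Cpt1b on every array, the brighter probe used in the results on the left and the dimmer probe on the right, with circles for 1 month, squares for 2 months, blue for flox, red for cardioMRKO, and black bars for the mean and SD of 4 arrays. At 2 months the cardioMRKO arrays are lower on the left (-0.57) and level with flox on the right (0.01).

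Mlycd, malonyl-CoA decarboxylase, which removes the inhibitor of the carnitine palmitoyltransferases, was at 5.72, 5.60, 6.09 and 5.88 in flox and at 5.43, 5.37, 5.64 and 5.72 in cardioMRKO hearts at 1 month, a difference of -0.28 (adjusted p = 0.806). At 2 months the values were 5.90, 5.97, 6.07 and 6.19 against 5.49, 5.79, 5.38 and 5.64. These did not overlap, and the difference of -0.46 (SE 0.128) had an adjusted p of 0.0655. Cpt2, which restores acyl-CoA inside the mitochondrion, was 6.37 to 6.96 in flox and 5.99 to 6.31 in cardioMRKO hearts at 2 months, a difference of -0.40 (adjusted p = 0.0867), and of -0.21 without both arrays that stood apart. Slc25a20, the carnitine-acylcarnitine carrier, differed by -0.25 at 1 month with groups apart (adjusted p = 0.764) and by -0.05 at 2 months, where quantile normalization gave 0.06.

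Cpt1a, the liver form of carnitine palmitoyltransferase, which the heart also makes, was 1.05 to 1.43 in flox and 1.03 to 1.22 in cardioMRKO hearts at 1 month. At 2 months it was at 1.29, 1.31, 1.44 and 2.33 in flox and at 1.25, 1.19, 1.60 and 1.18 in cardioMRKO hearts, a difference of -0.29 (SE 0.195, adjusted p = 0.453). Flox replicate 4 lay 0.89 above the next array, and without it the difference of Cpt1a was -0.04 (adjusted p = 0.907). The dimmer probe differed by 0.33 at 2 months, and the mean of both probes by 0.02, so the direction for Cpt1a depends on the probe.

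Of the 16 beta oxidation genes, all 16 lay below 0 at 1 month (median -0.22) and 14 at 2 months (median -0.30), and 1 of them was called, Hadh at 2 months. Hadh, the hydroxyacyl-CoA dehydrogenase for short and medium chains, was at 5.58, 5.35, 5.44 and 5.46 in flox and 5.33, 5.35, 5.17 and 5.23 in cardioMRKO hearts at 1 month, a difference of -0.18 (adjusted p = 0.882). At 2 months it was at 5.64, 5.72, 5.74 and 6.03 against 5.33, 5.45, 5.40 and 5.24, with no overlap. Hadh fell by 0.43 at 2 months (SE 0.0966, 1.34-fold lower, adjusted p = 0.029). The adjusted p was 0.0573 without flox replicate 3, 0.0531 without flox replicate 4 and 0.0746 without cardioMRKO replicate 4, all at 2 months, and 0.217 under quantile normalization, where the difference was -0.25.

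The enoyl-CoA isomerases Eci1 and Eci2, which prepare unsaturated chains for the cycle, differed by -0.23 and -0.24 at 1 month and by -0.52 and -0.40 at 2 months. Eci2 was at 6.30, 6.24, 6.49 and 6.53 in flox and at 6.04, 6.17, 5.77 and 5.97 in cardioMRKO hearts at 2 months (adjusted p = 0.0603). Eci1 was at 6.44, 6.37, 6.60 and 7.02 against 6.29, 6.17, 5.71 and 6.19 (adjusted p = 0.0655), and it was with Acot1 and Plin5 among the 3 genes whose groups did not overlap at either age. Without both arrays that stood apart the 2-month difference of Eci1 was -0.26. Ech1 and Decr1, which also serve unsaturated chains, differed by -0.31 and -0.16 at 1 month and by -0.18 and -0.37 at 2 months, with adjusted p of 0.249 or above, and the later value of Decr1 was -0.19 without flox replicate 4.

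The acyl-CoA dehydrogenases take the first step, each for its own chain length. Acadvl, for very long chains, was 7.57 to 7.81 in flox and 7.23 to 7.46 in cardioMRKO hearts at 1 month (difference -0.34, adjusted p = 0.593), and it differed by -0.30 at 2 months (0.164). Acadl, for long chains, differed by -0.04 at 1 month and by -0.37 at 2 months (adjusted p = 0.136), where flox replicate 4 at 6.02 lay 0.55 above the next array. Without that array the 2-month difference of Acadl was -0.22 (adjusted p = 0.256), and the 1-month one was 0.03 without flox replicate 4 of that age. Acadm, for medium chains, differed by -0.10 and -0.25, with 0.05 at 1 month under quantile normalization.

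Acads, for short chains, was at 2.68, 2.57, 2.64 and 2.54 in flox and at 2.28, 2.36, 2.21 and 2.41 in cardioMRKO hearts at 1 month, groups that did not overlap, with a difference of -0.29 (SE 0.0888, adjusted p = 0.503). The later values were 2.66, 2.73, 2.76 and 2.63 against 2.64, 2.69, 2.98 and 2.66, a difference of 0.05. That sign rested on cardioMRKO replicate 3, the array at 2.98, and the difference of Acads without it was -0.03 (adjusted p = 0.855). The difference between the ages was 0.34 (SE 0.126), with an unadjusted p of 0.0168 and an adjusted p of 0.296.

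The trifunctional protein subunits Hadha and Hadhb, which carry out the later steps on long chains, differed by -0.31 and -0.10 at 1 month and by -0.30 and -0.23 at 2 months, with overlapping groups throughout, and the 1-month value of Hadhb was 0.04 under quantile normalization. Without flox replicate 4 the 2-month difference of Hadha was -0.16. Echs1, the short-chain enoyl-CoA hydratase, was 5.85 to 6.02 in flox and 5.45 to 5.75 in cardioMRKO hearts at 2 months, a difference of -0.31 (adjusted p = 0.0957). Acaa2, the mitochondrial thiolase, differed by -0.25 at 1 month, with groups apart, and by -0.30 at 2 months (adjusted p = 0.157). Among the genes of electron transfer, Etfb differed by -0.32 at 1 month and -0.16 at 2 months, Etfdh by -0.22 and -0.18, and Etfa by -0.20 and 0.17, none of them called. Without cardioMRKO replicate 3 the 2-month difference of Etfb was 0.01, and the dimmer probe of Etfdh differed by -0.13 and 0.07.

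Of the 4 regulators and uncoupling proteins, 2 were below 0 at 1 month and 0 at 2 months, and none was called. The 2-month signs of Ppara, Ppargc1a and Ucp3 turned when single arrays were left out, so that count describes no shared direction. Ucp2, an uncoupling protein homologue of the inner mitochondrial membrane, was at 1.45, 0.94, 0.70 and 0.61 in flox and at 1.66, 1.60, 1.61 and 1.42 in cardioMRKO hearts at 1 month. The values at 2 months were 0.75, 0.34, 1.22 and 0.82 against 1.38, 1.12, 1.66 and 1.13. A flox array reached into the cardioMRKO range at each age. The differences were 0.65 (SE 0.2, adjusted p = 0.526) and 0.54 (SE 0.2, adjusted p = 0.157), and 0.59 (SE 0.142, adjusted p = 0.0619) averaged over the ages. The other 2 probes of Ucp2 differed by 0.78 and 1.08 at 1 month and by 0.64 and 0.86 at 2 months, the latter of each pair from a probe above background on 4 arrays only. Averaged over the ages, Ucp2 was called with the mean of its probes.

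Ppara, which encodes PPARα, was at 2.86, 1.95, 2.00 and 1.89 in flox and at 2.61, 2.48, 2.02 and 2.04 in cardioMRKO hearts at 1 month, a difference of 0.11 (SE 0.644). At 2 months it was at 3.08, 2.60, 2.80 and -0.78 in flox and at 3.0, 2.28, 1.67 and 2.22 in cardioMRKO hearts, a difference of 0.37 (SE 0.644, adjusted p = 0.781). Ppargc1a, which encodes PGC-1α, was at 3.45, 2.70, 2.55 and -0.90 in flox and at 3.52, 2.66, 1.04 and 2.05 in cardioMRKO hearts at 2 months, also a difference of 0.37 (SE 0.746, adjusted p = 0.812). On the probes used, flox replicate 4 lay more than 3 units below the other flox arrays in both genes. Neither direction at 2 months holds without it: the difference became -0.53 for Ppara and -0.58 for Ppargc1a. It was -0.21 for Ppara with array weights.

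The dimmer probe of Ppargc1a differed by -0.05 at 1 month and -0.33 at 2 months, against -0.17 and 0.37 for the brighter probe. On flox replicate 4 at 2 months the dimmer probe stood at 2.27, within its group's 1.98 to 2.98. The low value of that array was thus on the brighter probe only. On cardioMRKO replicate 3 at 2 months the dimmer probe was at 2.02 and the brighter at 1.04. Ucp3, the uncoupling protein of muscle, ranged from -0.44 to 1.40 in flox and from -0.26 to 1.49 in cardioMRKO hearts at 2 months, and its differences of -0.25 and 0.14 (SE 0.415) were within that spread, with -0.23 at 2 months without cardioMRKO replicate 3. The standard errors of Ppara, Ppargc1a and Ucp3 were the 3 widest of the list, so differences of the size seen in the other steps were not detectable in them.

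**Figure D5:**
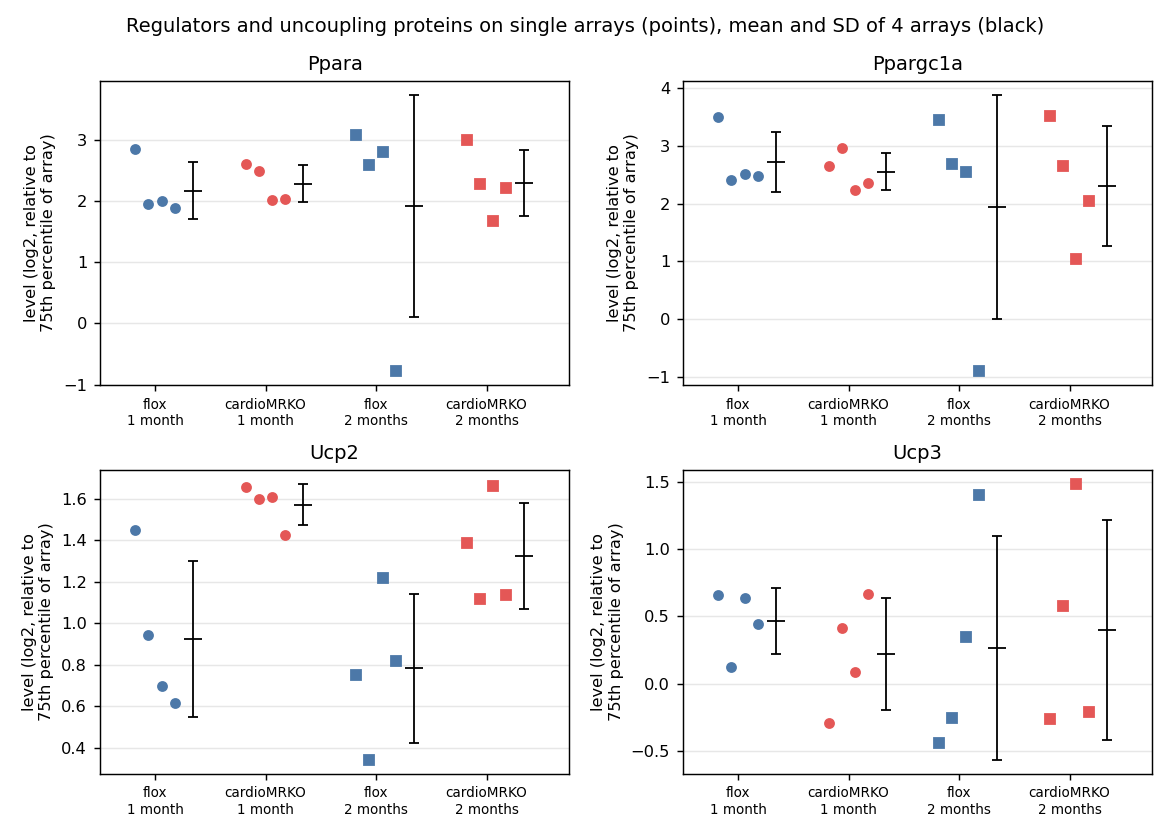
Levels (log2, scaled to the array's 75th percentile, vertical axis) of Ppara, Ppargc1a, Ucp2 and Ucp3 on every array of the 4 groups, with circles for 1 month, squares for 2 months, blue for flox, red for cardioMRKO, and black bars for the mean and SD of 4 arrays. A flox array at 2 months lies at -0.78 for Ppara and -0.90 for the brighter probe of Ppargc1a, while Ucp2 averages 1.57 and 1.32 in cardioMRKO and 0.93 and 0.78 in flox hearts.

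The test of whether the genotype difference itself changed between 1 and 2 months called 0 of the 35 genes, where 0.748% of all genes were called. The smallest adjusted p was 0.296, and 2 of the 35 had an unadjusted p under 0.05 in limma, Cpt1b and Acads, compared with 11.3% of all genes. A call at 2 months and none at 1 month therefore does not show that the ages differ for Acot1, Cpt1b or Hadh.

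Age itself was compared within each genotype. These comparisons share arrays with those above: an array of the flox group at 2 months that lies high for a gene raises its age difference in flox and lowers its genotype difference at 2 months. In flox hearts, 10 of the 35 genes rose from 1 to 2 months, which is 28.6%, where 16.7% of all genes were called higher, and 0 of the 35 fell, where 5.91% were called lower. The 10 were Cd36 and Angptl4 of uptake, Acot1 and Plin5 of storage, Cpt1b, and Hadha, Hadhb, Hadh, Ech1 and Decr1 of beta oxidation. The count was 5 with only the 8 flox arrays in the fit, 6 without flox replicate 2 at 1 month and 6 without flox replicate 4 at 2 months. Another 10 of the 35 lay below 0 with age in flox hearts. Among them only Etfa, at -0.42, had an unadjusted p under 0.05 in limma, and it was called lower in 3 of 26 alternatives.

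In cardioMRKO hearts, 5 of the 35 rose with age, or 14.3%, where 5.32% of all genes were called higher: Cd36, Plin5, Acads, Hadha and Ech1. The count was 3 without cardioMRKO replicate 2 at 2 months. Cd36, Ech1, Hadha and Plin5 were called in both genotypes, although the call on Plin5 in cardioMRKO hearts held in only 10 of 26 alternatives. Whether age acted differently in the 2 genotypes is the same test as the one between ages above, which called none of the 35.

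The sizes of the age differences were as follows. Hadha rose by 0.69 in flox (adjusted p = 0.00758) and by 0.69 in cardioMRKO hearts (0.0149), from 3.46 ± 0.24 to 4.15 ± 0.29 and from 3.15 ± 0.12 to 3.85 ± 0.24 (SD, n = 4). Ech1 rose by 0.50 and 0.64 (adjusted p = 0.00542 and 0.00304). Cd36 rose by 0.50 and 0.48 (adjusted p = 0.00596 and 0.0158), and Plin5 by 0.38 and 0.37 (0.0233 and 0.0465). Leaving out an array lost the call on Plin5 in cardioMRKO hearts for 12 of the 16 arrays (adjusted p = 0.0532 to 0.132) and the call in flox hearts for 4 (0.0529 to 0.0765).

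Other genes were called in a single genotype, and for none of them did the difference between the ages pass the test. Acot1 rose by 0.61 in flox hearts (adjusted p = 0.0175, lost in 5 of 26 alternatives), and its difference in cardioMRKO hearts was 0.33 (0.255). Cpt1b rose by 0.44 in flox (adjusted p = 0.00806), with 0.06 in cardioMRKO hearts (0.777). Acads rose by 0.43 in cardioMRKO hearts (adjusted p = 0.00821), with 0.09 in flox (0.522).

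Angptl4 had the largest age difference of the list. It was at 2.16, 2.47, 3.35 and 2.73 in flox hearts at 1 month and at 3.13, 3.63, 4.37 and 4.64 at 2 months, a rise of 1.27 (SE 0.368, adjusted p = 0.023) although the groups overlapped. That call on Angptl4 was lost in 8 of 26 alternatives, among them leaving out flox replicate 1 or 2 at 1 month or flox replicate 3 or 4 at 2 months (adjusted p = 0.0589 to 0.069). In cardioMRKO hearts the difference was 1.16 (adjusted p = 0.0621). Hadhb rose by 0.55 (adjusted p = 0.0112) and Decr1 by 0.50 (0.0449) in flox, with 0.41 and 0.29 in cardioMRKO hearts. The call on Decr1 held in only 9 of 26 alternatives, and without flox replicate 4 at 2 months its difference was 0.32 (adjusted p = 0.109). Hadh rose by 0.33 in flox (adjusted p = 0.0251), a call lost in 8 of 26 alternatives.

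Marker lists of other cell types and tissues also held calls with age. All 6 adipocyte markers were above 0 with age in both genotypes, with medians of 1.28 and 1.24, and 1 of 6 was called in each, Lep, which was not well above background on any array at 1 month. Their mean level was 0.10 to 1.5 in flox hearts at 1 month and 1.80 to 2.61 at 2 months, and -2.16 to 1.87 and 1.44 to 2.80 in cardioMRKO hearts. Without replicate 3, the array at -2.16, the 1-month cardioMRKO arrays were at 1.35 to 1.87. Cd36, Lpl, Angptl4 and Pnpla2 are also made by fat cells. The 6 lung epithelium markers were above 0 with age in both genotypes, 5 of 6 called in flox and 0 in cardioMRKO hearts, with a mean level of -6.16 to 2.93 in flox at 1 month and 2.25 to 5.47 at 2 months. Without flox replicate 4 and cardioMRKO replicate 1 at 1 month, which had high lung markers for their groups, the age counts were 5 in flox and 3 in cardioMRKO hearts, the genotype count at 2 months was 2 (Acot1 and Cpt1b) and the count averaged over the ages was 1 (Acot1). Fibroblast markers lay lower at 2 months, with a median of -0.64 in each genotype. The collagen genes Col1a1, Col1a2 and Col3a1, 3 of these 5 markers, fell in both, where 5.91% of all genes were called lower with age in flox and 4.93% in cardioMRKO hearts. Their list's mean level was 4.97 to 5.10 at 1 month and 4.43 to 4.58 at 2 months in flox, and 4.95 to 5.27 and 4.21 to 4.68 in cardioMRKO hearts. The median of 5 endothelial markers was -0.32 in flox with none called and -0.26 in cardioMRKO hearts, where Cdh5 fell. Of 6 skeletal muscle markers, Myh1 rose in both genotypes, Acta1 rose in cardioMRKO and Myh4 fell in flox hearts. Of 5 leukocyte markers, 2 rose in flox and 1 in cardioMRKO hearts. Sftpc, Sftpa1, Sftpd, Lep, Myh1 and Cd79a were well above background on all 4 arrays only in a 2-month group. They passed the filter through that group, which favours a rise with age, so their calls with age cannot be read as a result. The part of these cell types and tissues in the age differences was not tested.

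Other genes around the pathway were taken from 8 lists of 103 genes, of which 98 could be tested. At 1 month 65 of 98 (66.3%) lay below 0, beside 45.7% of all genes, and 0 were called. At 2 months 64 of 98 (65.3%) lay below 0, near the 62% of all genes, with a median of -0.16 against -0.08. Of these, 4 fell, or 4.08%, where 1.98% of all genes were called lower, Acot7, Gapdh and Idh3a among them. None rose.

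Among these, Acot7, a cytosolic thioesterase like Acot1, fell by 0.49 at 2 months (SE 0.106, adjusted p = 0.0231). Acot3, a peroxisomal thioesterase of the Acot1 cluster, was well above background on all flox arrays but on 0 of 4 cardioMRKO arrays at 1 month and 2 of 4 at 2 months. The adjusted p of the limma fit at 1 month was 0.396. With no cardioMRKO value set lower than the dimmest signal still above background on its array, the flox mean was 1.45-fold higher. No error was given to that value. Acot3 passed the filter through the flox groups, which favours a lower cardioMRKO level, so its genotype difference cannot be read as a result. Acot4, its neighbour in the cluster, differed by 0.49 and -0.21 with no call.

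The citric acid cycle genes, which take up the acetyl-CoA that beta oxidation makes, showed the same side of 0 as the oxidation genes. All 13 tested were below 0 at 1 month (median -0.17) and 11 of 13 at 2 months (median -0.28). Idh3a, a subunit of isocitrate dehydrogenase, fell by 0.44 at 2 months (SE 0.0941, adjusted p = 0.0226), with no overlap between the groups. Of 14 genes of glucose use, 11 were below 0 at 1 month (median -0.18) and 7 at 2 months (median -0.02), and Gapdh fell by 0.42 at 2 months (adjusted p = 0.039).

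Of 5 other uptake genes, 5 were below 0 at 1 month and 3 at 2 months, and 1 was called lower at 2 months. The other 4 lists gave no call on genotype. Of 13 peroxisomal oxidation genes, 6 were below 0 at 1 month and 9 at 2 months. Of 13 other mitochondrial oxidation genes, 10 and 9 were below 0. Of 15 other regulators, 9 and 8 were below 0, with Rxrg, an RXR partner of PPARα, at -0.27 and -0.32 (adjusted p = 0.786 and 0.141). Of 6 other shuttle and malonyl-CoA genes, 1 was below 0 at 1 month and 3 at 2 months, including the carnitine transporter Slc22a5 at -0.11 and -0.15.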

How the data were processed

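Cy3-labelled RNA from 16 hearts was hybridised to Agilent single-colour arrays, and the authors deposited each array's processed signal intensity, background-subtracted by Feature Extraction (12.0.0.7 per the file headers, 9.5 per the submitters' processing notes). The deposited value table held the same values and was not used apart. Here, 43379 non-control spots were averaged to 41174 probes, outlier spots were left out, and log2 of the signal was taken minus the array's 75th percentile. Symbols came from the RefSeq table (28223 probes matched, 12951 did not). The filter kept 27277 probes that were well above background throughout the 4 arrays of some group. The brightest probe stood for a gene, giving 20055 genes, 14953 of them with a symbol and the others counted by array identifier. limma 3.58.1 in R 4.3.3 was fitted to all 16 arrays with 12 residual degrees of freedom, with two-sided Benjamini-Hochberg adjusted p-values over all genes and a call under 0.05. Each array was taken as a different mouse, as the design text gives it; p-values measure the spread between these samples.

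The normexp alternative used the median foreground signal, since the files held no mean signal. Also tried were quantile normalization, other probe filters, the mean of a gene's probes, array weights, only the 8 arrays of a comparison, a replicate block and leaving out arrays; leaving out 2 pairs of arrays, by spike-in signal or by lung markers, was added after seeing the data. Values on every array were set for the genes called on genotype, the 2 of each step with the smallest p averaged over the ages, Ppara, Ppargc1a, Acot2 and Cpt1a; with age, for up to 6 called genes a genotype by size; from each other list, for up to 4 called genes, else for the gene of smallest p. Array values of other genes, and Acot3 and Acot4, were added after their values were seen. The fit was tested on simulated data. The members and lists were chosen with earlier results of these data known. Probe sequences were not used here, and values of some single genes of the other lists are not reported here.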

Additional observations from a re-analysis of the deposited data

Results flagged for a closer look

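Single arrays that stood far from the other 3 of their group were found in 16 of 164 sets of 4 arrays (the 35 genes, the 5 step means and the mean of all 35, in 4 groups), where chance gives about 1 in 20, and the sets share arrays and are not independent. Of the 16, 6 came from flox replicate 4 at 2 months, an array that also stood apart in the spike-ins: it was highest for Cd36 (5.84), Cpt1a (2.33) and Acadl (6.02) and lowest for Fabp3 (7.62), Acot2 (0.42) and Ppara (-0.78). Another 3 came from cardioMRKO replicate 3 at 2 months, the other array apart in the spike-ins, which was highest for Slc27a1 (2.77) and Acads (2.98) and lowest for Cpt2 (5.99). Flox replicate 1 at 1 month was highest for Ppara (2.86), for Ppargc1a (3.50) and for the mean of the regulation genes (2.12). The remaining 4 were Acot1 at 2.61 in cardioMRKO replicate 4 at 1 month, Acaa2 at 7.59 in cardioMRKO replicate 1 at 1 month, Acsl1 at 7.07 in flox replicate 1 at 2 months and Angptl4 at 3.29 in cardioMRKO replicate 1 at 2 months. The cause of these values was not tested.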

How the results depend on the processing

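The median difference of the 35 genes stayed below 0 under every alternative run. At 2 months it was -0.11 under quantile normalization and -0.16 with array weights, against -0.25, with all genes at -0.03 in both, and -0.29 to -0.21 leaving out an array. Array weights called 5 genes at 1 month (Acsl1, Acot1, Plin5, Acads and Ucp2), 11 averaged over the ages and 9 with age in cardioMRKO hearts. The averaged count of 4 became 2 under quantile normalization, 1 with no filter on dim probes, 1 without both 1-month arrays of high lung markers and 1 to 4 leaving out an array. The 2-month count of 3 became 0 with only its 8 arrays and 2 to 6 leaving out an array. With age in flox hearts the count was 5 with only 8 arrays, 5 without the arrays of high lung markers and 6 to 13 leaving out an array. With age in cardioMRKO hearts it was 8 without the pair low in spike-ins, 3 without those of high lung markers and 3 to 6 leaving out an array. The averages and the difference between ages have no fit on 8 arrays, since each needs all 4 groups. For the counts under alternatives, here and above, the share of all genes called in the same fit is not given. They show how the calls move and not an excess in the 35 genes.

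The sign turned under at least 1 alternative for 10 of the 35 genes at 1 month, 11 at 2 months, 8 averaged over the ages, 20 for the difference between ages, 11 with age in flox and 14 with age in cardioMRKO hearts, none of them called there. Among the genes named by the stated rule and Nr3c2, reversed genotype values were Nr3c2 at 1 month under normexp (0.0164), Lpl at 1 month under quantile normalization (0.0468), Cpt1a at 2 months with the mean of its probes (0.0195), Ppara at 2 months with array weights (-0.21), Ppara and Ppargc1a at 2 months without the 2 low spike-in arrays (-0.33 and -0.16) or with an array left out (-0.53 to 0.75 and -0.58 to 0.87, the lowest without flox replicate 4; Ppargc1a also -0.03 without cardioMRKO replicate 1), Ppargc1a at 1 month without flox replicate 1 (0.0899) and Ppara at 1 month without the arrays of high lung markers (-0.0881). The cause was not tested beyond the arrays or probes each alternative leaves out. Of the calls, Acot1 at 2 months lost its own only with 8 arrays (adjusted p = 0.0815), Cpt1b there (0.111) and with the mean of its probes, Hadh at 2 months in 9 of 26 alternatives and averaged in 19 of 25, and Cpt1b averaged in 9 of 25.

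Equal replicate numbers were not taken as pairs. Deviations of arrays with equal numbers correlated at -0.31 to 0.36 (median 0.06), with a median of -0.01 for other numbers, which cannot exclude pairing. The replicate number is also the array's position on its slide, so a replicate block is a position block as well. With the replicate block the counts were 0 at 1 month, 3 at 2 months, 4 averaged, 11 with age in flox and 6 with age in cardioMRKO hearts, and in the average Hadh lost its call while Ucp2 gained it. With 4 arrays a group on a slide of their own, small differences were not detectable and slide effects could not be separated.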
